A study of Mus musculus with 15 samples.

Results

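Mouse embryonic stem cells (ESCs) in which the gene for OCT4, *Pou5f1*, can be removed by an inducible recombinase were compared after 24 h of 4-hydroxytamoxifen (4-OHT) and before it was added. The comparison used 4 of the 15 libraries of the series, 2 at 0 h and 2 at 24 h, and all genes counted in them. The cells had the genotype Oct4Fl/- with CAG CreER, in a mixed 129SV and C57BL/6 background, so that 1 floxed copy of *Pou5f1* faced a null copy in every library and the 0 h cells carried CreER too. CreER is a Cre recombinase fused to a part of the estrogen receptor, and 4-OHT lets it enter the nucleus and cut out sequence between loxP sites; CAG is a promoter that is active in most cell types. The ESCs were kept in N2B27 medium with the MEK inhibitor PD03 at 1 µM, the GSK3 inhibitor Chiron at 3 µM and mouse LIF, per the growth protocol, and 4-OHT was given at 500 nM. Whether the cells sequenced stayed in this medium during 4-OHT is not stated, and the study changed the medium to serum and LIF, without the inhibitors, on adding 4-OHT when it followed OCT4 in Oct4Fl/- ESCs by qRT-PCR and western blot. Further libraries of the same cells at 12, 18 and 36 h, also 2 at each time, entered the fit to set the spread between replicates. O4AID ESCs lack endogenous *Pou5f1* and carry a transgene for OCT4 with an auxin-degron tag, which is degraded on addition of 500 µM auxin (IAA). Per the study they also express TIR1, which brings about this degradation. They were maintained in doxycycline, which silences a further transgene for untagged OCT4. O4AID gave 1 library at each of 0 and 24 h, and its values are given beside those of CreER where they bear on a gene. No library came from 4-OHT-treated ESCs without a floxed allele, and none from ESCs kept for 24 h without 4-OHT. Effects of 4-OHT, of Cre in the nucleus, of the loss of *Pou5f1*, of time in culture, of a medium change if there was one and of the libraries themselves therefore cannot be told apart. Nothing states that the 2 replicates of a time came from separate cultures, and p-values then measure only the spread between these libraries, which may be technical.

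OCT4 is a POU-family transcription factor that binds the octamer sequence, often next to SOX2, and holds ESCs in the pluripotent state. ESCs that lose it are known to drift towards trophectoderm, the outer epithelium of the blastocyst that forms the placenta, marked by CDX2, EOMES, GATA3 and keratins. Naive pluripotency factors such as NANOG, ESRRB and TFCP2L1 are kept high in ESCs by LIF and by the pair of inhibitors, and they act in a network in which OCT4 is a central part.

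The 4 libraries held between 24479121 and 29642940 counted reads. The mitochondrial share was 8.54% and 9.32% at 0 h and 9.95% and 10.6% at 24 h. The share on rRNA genes was 0.145% and 0.382% at 0 h and 0.0626% and 0.162% at 24 h. All 18 naive pluripotency transcription factors of the list used here passed the filter on low counts, and of 8 fibroblast markers 5 passed it, the highest reaching 3.53 CPM (counts scaled to a fixed library size), while *Lum*, *Dcn* and *S100a4* did not exceed 0.192 CPM in any of the 4 libraries. Levels below are CPM with the trimmed mean of M-values (TMM) scaling, and differences are log2 changes at 24 h against 0 h from edgeR's quasi-likelihood test. A gene was called where its p-value, adjusted by the Benjamini-Hochberg method over all 18969 genes tested, was under 0.05.

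At 24 h 4089 of 18969 genes were called, 21.6% of those tested, with 2084 higher (11.0%) and 2005 lower (10.6%). Of the called genes 51% were therefore higher; the share was 61.3% when libraries were scaled by their total counts and 43.6% after a correction for GC content. Most of the changes were small. Among the called genes 3802, or 93%, changed by less than 1 on the log2 scale, and the median was 0.42 for those called higher and -0.23 for those called lower. Only 287 genes, 1.51% of those tested, were called with a change of at least 1, and of these 227 were higher (1.20% of those tested) and 60 lower (0.316%). The median over all tested genes was 0.013. An unadjusted p under 0.05 was reached by 6294 genes, or 33.2%. DESeq2 called 2585 genes, and without replicate 1 or replicate 2 of 24 h edgeR called 2470 and 2343.

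**Figure D1:**
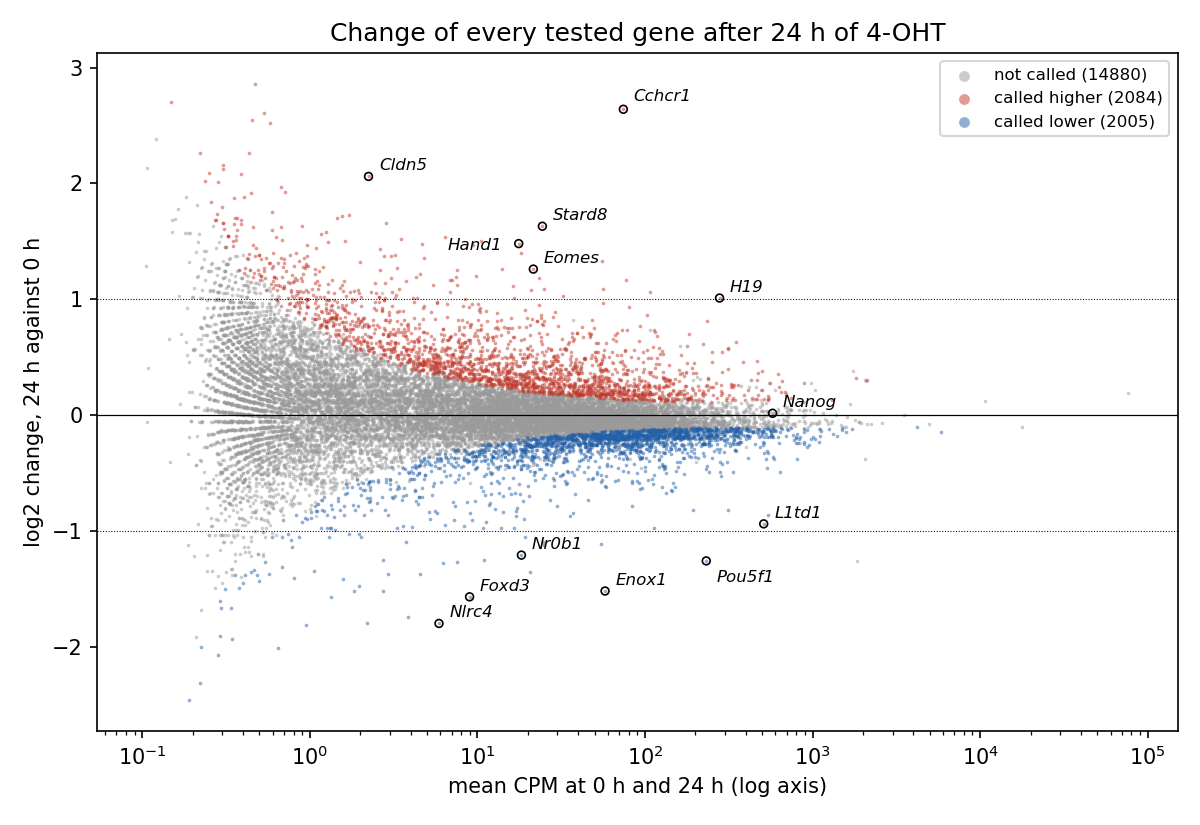
Each point is 1 of the 18969 tested genes, with its mean CPM at 0 and 24 h on a log axis and its log2 change at 24 h against 0 h on the other; red points were called higher, blue lower and grey not called, and dotted lines mark changes of 1 and -1. *Cchcr1* at 2.64 and *Cldn5* at 2.06 stand highest among the labelled genes and *Nlrc4* at -1.80 lowest, while *Nanog* lies at 0.015.

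The octamer is shown next, as the sequence that OCT4 reads. It was searched as ATGCAAAT on either strand, so as ATTTGCAT on the other, in RefSeq promoters of build GRCm38.p6 that run from 250 bases before to 50 bases after the start of a gene. The window held it in 200 of 12035 tested genes with a promoter in that table, or 1.66%, and in 570 of all 32851 promoters, or 1.74%. It was in 26 of 1518 called higher, 1.71%, and in 25 of 1367 called lower, 1.83%, so the shares stood close to each other. Of the called genes that belong to the gene lists or are named here, 3 held it, and their 250 bases before the start are printed 5′ to 3′ along the gene's strand with the octamer in capitals. The printed bases of *Cdx2* lie at chr5:147307250-147307499 (minus strand), those of *Spp1* at chr5:104435942-104436191 (plus strand) and those of *Zfp42* at chr8:43307010-43307259 (minus strand).
Cdx2: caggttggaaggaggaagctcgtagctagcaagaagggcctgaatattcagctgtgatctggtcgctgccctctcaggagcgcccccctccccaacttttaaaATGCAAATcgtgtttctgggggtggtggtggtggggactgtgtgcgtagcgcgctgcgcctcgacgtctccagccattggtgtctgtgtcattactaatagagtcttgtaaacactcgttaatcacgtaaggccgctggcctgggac
Spp1: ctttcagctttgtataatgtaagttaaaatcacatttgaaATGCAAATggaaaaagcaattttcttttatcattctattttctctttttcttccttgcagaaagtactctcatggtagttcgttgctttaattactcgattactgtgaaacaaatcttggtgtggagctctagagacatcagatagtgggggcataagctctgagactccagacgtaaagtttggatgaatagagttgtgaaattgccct
Zfp42: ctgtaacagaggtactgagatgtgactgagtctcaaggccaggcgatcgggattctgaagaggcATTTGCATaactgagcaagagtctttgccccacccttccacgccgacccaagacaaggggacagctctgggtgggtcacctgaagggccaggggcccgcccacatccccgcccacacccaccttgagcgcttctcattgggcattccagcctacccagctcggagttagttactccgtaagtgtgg
In *Cdx2*, the trophectoderm factor, the octamer began 147 bases before the start, and the gene rose by 1.01 on the log2 scale. In *Zfp42*, which encodes the ESC zinc finger protein REX1, it stood on the opposite strand, and the gene fell by 0.32. In *Spp1*, which encodes the secreted protein osteopontin, it began 210 bases before the start, and the gene fell by 0.27. A match is a run of letters in this window and says nothing on binding.

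*Pou5f1* (ENSMUSG00000024406, GRCm38 chromosome 17, 35506018 to 35510772, plus strand) stood at 330 and 324 CPM at 0 h and at 136 and 138 CPM at 24 h, a log2 change of -1.26 (SE 0.0441, adjusted p 2.86e-17). The 24 h level was 0.419 times that at 0 h, the groups did not overlap (as for 58.6% of all genes tested), and the direction was that of the labels. Counts were summed over whole genes, and which exons lie between the loxP sites is not given in the sources used here, so reads from exons outside the floxed part could be among those left. In O4AID the endogenous *Pou5f1* is knocked out at both times, a transgene for tagged OCT4 replaces it, and auxin removes the protein. The *Pou5f1* level there, which can come from transgene reads, was 717 CPM at 0 h and 601 CPM at 24 h.

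Within 100 kb of *Pou5f1*, 9 other genes were tested, and 2 of them rose, beside 11.0% called higher of all genes tested. Both lie downstream on the plus strand, as *Pou5f1* does. *Cchcr1*, which encodes a coiled-coil protein of the centrosome and P-bodies, starts 6328 bases past the end of *Pou5f1* and went from 19 and 22 CPM to 130 and 127 CPM, a change of 2.64 (SE 0.0589, adjusted p 4.61e-22). *Psors1c2*, which begins 22429 bases past that end, went from 6.93 and 5.64 CPM to 11.8 and 12.5 CPM, a change of 0.96 (SE 0.108, adjusted p 1.77e-07). Neither gene overlapped between the groups. *Tcf19* lies between *Pou5f1* and *Cchcr1* on the minus strand, encodes a transcription factor first described in cycling cells, and was not called, at 10.5 and 9.39 CPM against 10.9 and 11.9 CPM (0.20, adjusted p 0.206).

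The other neighbours were low in these ESCs and were not called. Upstream, the histocompatibility genes *H2-Q6*, *H2-Q7* and *H2-Q10* and the pseudogene *Gm8752* had log2 changes of 0.57, -0.16, 0.46 and 0.23 with adjusted p from 0.208 to 0.697. Downstream, *Cdsn*, which encodes the skin adhesion protein corneodesmosin, was at 0.082 and *2300002M23Rik* at 0.21. None of these 6 exceeded 1.77 CPM in any of the 4 libraries, and the *H2-Q* genes are near-identical copies whose reads can be split between them. In the O4AID libraries, where the endogenous *Pou5f1* was knocked out before auxin, *Cchcr1* stood at 26 CPM at 0 h and 23.4 CPM at 24 h. *Psors1c2* stood there at 0.32 and 0.249 CPM.

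**Figure D2:**
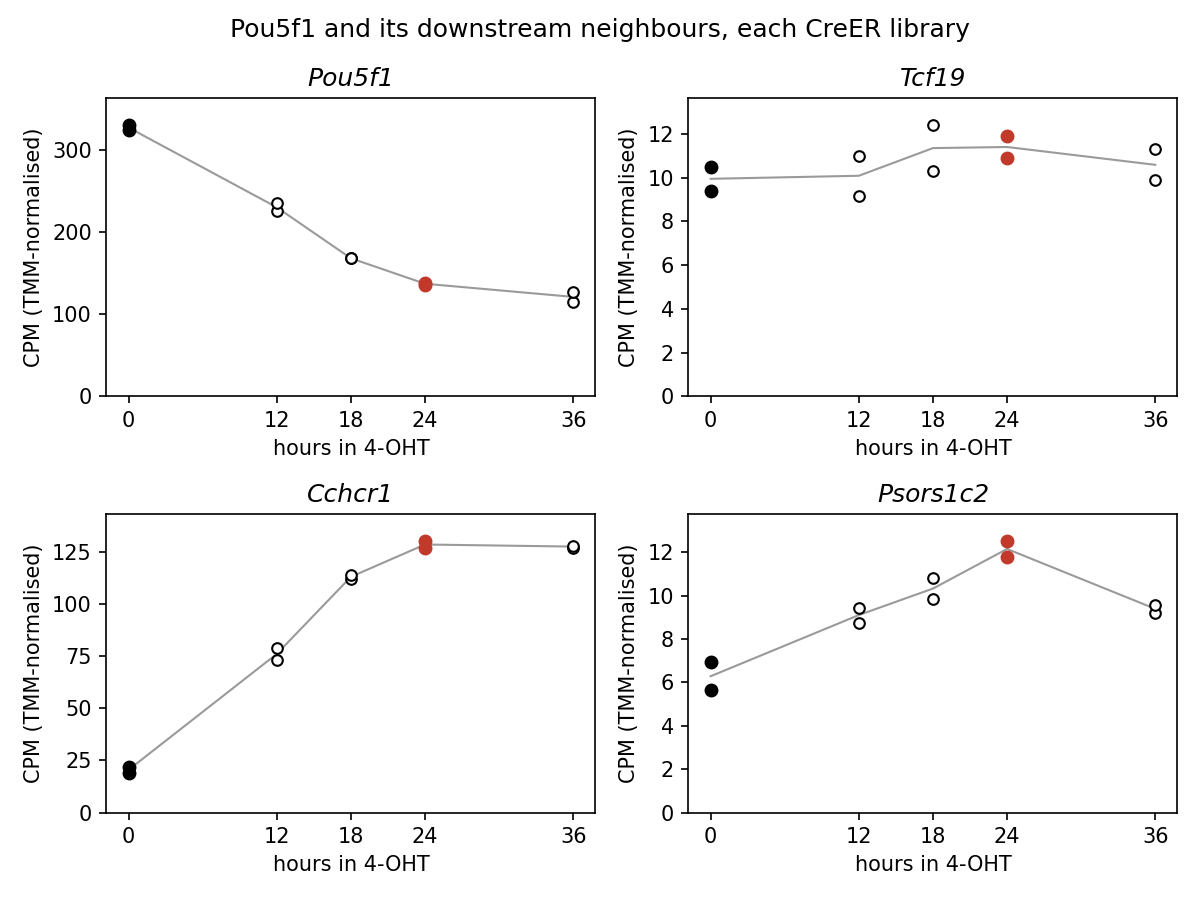
CPM of *Pou5f1*, *Tcf19*, *Cchcr1* and *Psors1c2* in each CreER library against hours in 4-OHT; filled black points are the 0 h libraries, red points the 24 h libraries, open points the other times, and the grey line joins the means of 2 libraries. *Pou5f1* stood at 168 CPM in both 18 h libraries and at 115 and 127 CPM at 36 h, *Cchcr1* had reached a mean of 113 CPM by 18 h, and the *Tcf19* points of the 24 h libraries lie just above those of 0 h.

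The largest falls, taken among called genes with a mean of at least 50 counts and no overlap between the groups, came from signalling, enzyme and adhesion genes as well as from an ESC transcription factor. *Nlrc4*, an inflammasome sensor of bacterial proteins, stood at 9.06 and 9.26 CPM at 0 h and at 2.50 and 2.77 CPM at 24 h (-1.80, adjusted p 1.58e-10). *Tgm3*, a transglutaminase of the skin, went from 3.41 and 3.34 CPM to 0.909 and 1.04 CPM (-1.80). *Enpp2*, which encodes autotaxin, the enzyme that makes lysophosphatidic acid, went from 5.09 and 6.72 CPM to 1.95 and 1.58 CPM (-1.74). For each of these 3 the 0 h level was more than 2 times that at 24 h. *Foxd3*, a forkhead factor needed in the epiblast and neural crest, fell from 14.1 and 12.7 CPM to 4.09 and 5.00 CPM (-1.57, adjusted p 7.83e-11). *Enox1*, a cell-surface oxidase gene, was the most precise of these falls, from 87.9 and 83.4 CPM to 30.7 and 29.0 CPM (-1.52, SE 0.0551, adjusted p 4.32e-17), and its level in O4AID was under 0.2 CPM at both times.

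Of the 12 largest falls the other 7 lay between -1.52 and -1.28. They were the noncoding genes *1700097N02Rik* (-1.52) and *Platr8* (-1.48), the cadherin gene *Cdh9* (-1.52), *Fgf15* (-1.37), whose protein signals in the embryo and gut, *Tnfsf11* (-1.37), which encodes the osteoclast factor RANKL, *Cobl* (-1.36), an actin nucleator, and *Mcf2* (-1.28), an exchange factor for small GTPases. Their adjusted p ran from 2.79e-05 to 4.22e-13. All 12 were called under each of 13 alternative fits. *Cobl* stood at 29.7 and 29.8 CPM at 0 h and at 11.8 and 11.3 CPM at 24 h, and it was also lower in O4AID, from 171 CPM at 0 h to 48.3 CPM at 24 h. *Mcf2* likewise stood at 85.7 and 23.7 CPM in O4AID.

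The largest rises after *Cchcr1* held trophectoderm factors beside genes of junctions, channels and the cytoskeleton. *Cldn5*, a tight junction claudin known from endothelium, went from 0.922 and 0.811 CPM to 3.60 and 3.62 CPM (2.06, adjusted p 2.59e-08), on 23 to 111 counts. *Trpv4*, a calcium channel, went from 1.60 and 1.15 CPM to 4.38 and 4.19 CPM (1.66). *Stard8*, a regulator of small GTPases on chromosome X, went from 12.7 and 11.2 CPM to 36.6 and 37.2 CPM (1.63, SE 0.0820, adjusted p 5.48e-14). In all 3 the lowest 24 h library was more than 2 times the highest 0 h library. *Stard8* went the other way in O4AID, where it stood at 58.2 CPM at 0 h and 33.1 CPM at 24 h.

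The 8 rises that followed ran from 1.54 to 1.40. *Trim47* (1.54) encodes a ubiquitin ligase, *Rgcc* (1.52) a cell-cycle regulator, *Rab3il1* (1.50) an exchange factor for Rab GTPases, *Pth1r* (1.48) the receptor of parathyroid hormone, *Hand1* (1.48) and *Gcm1* (1.47) transcription factors of the trophoblast, and *Eps8l2* (1.40) an actin-binding protein. *6330403L08Rik* (1.43) is an antisense gene, and how strand was treated in counting is not stated, so its reads cannot be told apart from those of the opposite strand. Their adjusted p ran from 1.37e-06 to 3.56e-13, and all 12 rises were called under each alternative. At the other times the mean of *Pth1r* was 2.36 CPM at 12 h, 4.01 CPM at 18 h and 17.6 CPM at 36 h, while *Gcm1* was at 13.9 and 13.8 CPM at 24 h and at a mean of 13.5 CPM at 36 h.

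Of the naive pluripotency transcription factors, 8 of 18 tested fell and 3 rose, with a median of -0.13. Over all genes tested 10.6% were lower and 11.0% higher, with a median of 0.013. Here and for the lists below, these shares are not matched for level or kind of gene. Protein-coding genes called lower had a median of 67.8 CPM and those called higher 17.4 CPM, beside 16.1 CPM for all protein-coding genes tested. *Nr0b1*, the nuclear receptor DAX1, moved most, from 25.3 and 25.7 CPM to 10.4 and 11.8 CPM (-1.21, adjusted p 3.37e-11). *Gbx2*, a homeobox factor downstream of LIF, went from 14.4 and 15.2 CPM to 8.99 and 8.19 CPM (-0.78). *Mycn*, a MYC family factor, went from 181 and 176 CPM to 110 and 116 CPM (-0.66). Smaller falls were those of *Klf5* (-0.39), *Zfp42* (-0.32), *Nr5a2* (-0.27), an orphan nuclear receptor, and *Zfp281* (-0.17). Of these named here, all but *Zfp281* were called under each of the 13 alternatives.

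*Nanog* and *Sox2* were not called. *Nanog* was at 577 and 572 CPM at 0 h and at 589 and 571 CPM at 24 h (0.015, SE 0.0374, adjusted p 0.825), and *Sox2*, the partner of OCT4, at 277 and 267 CPM against 263 and 263 CPM (-0.046, SE 0.0424, adjusted p 0.487). *Klf4*, *Klf2*, *Stat3*, *Sall4* and *Prdm14* were not called either, with values of -0.029, -0.13, -0.13, 0.037 and 0.024, but after the GC correction *Klf2* was called lower at -0.27 (adjusted p 0.000449) and *Stat3* at -0.17 (adjusted p 0.0136). The groups of *Nanog*, *Klf4*, *Sall4* and *Prdm14* overlapped. *Tfcp2l1*, a naive factor induced by LIF, rose from 211 and 217 CPM to 264 and 249 CPM (0.26, adjusted p 0.000335). *Tbx3* (0.22, adjusted p 0.0218) and *Esrrb* (0.17, adjusted p 0.0107) also rose, but after the GC correction they were at 0.16 (adjusted p 0.115) and 0.095 (adjusted p 0.118). In the O4AID libraries *Nanog*, *Sox2*, *Klf4* and *Esrrb* had log2 ratios of -1.77, -1.92, -2.40 and -2.82 at 24 h.

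**Figure D3:**
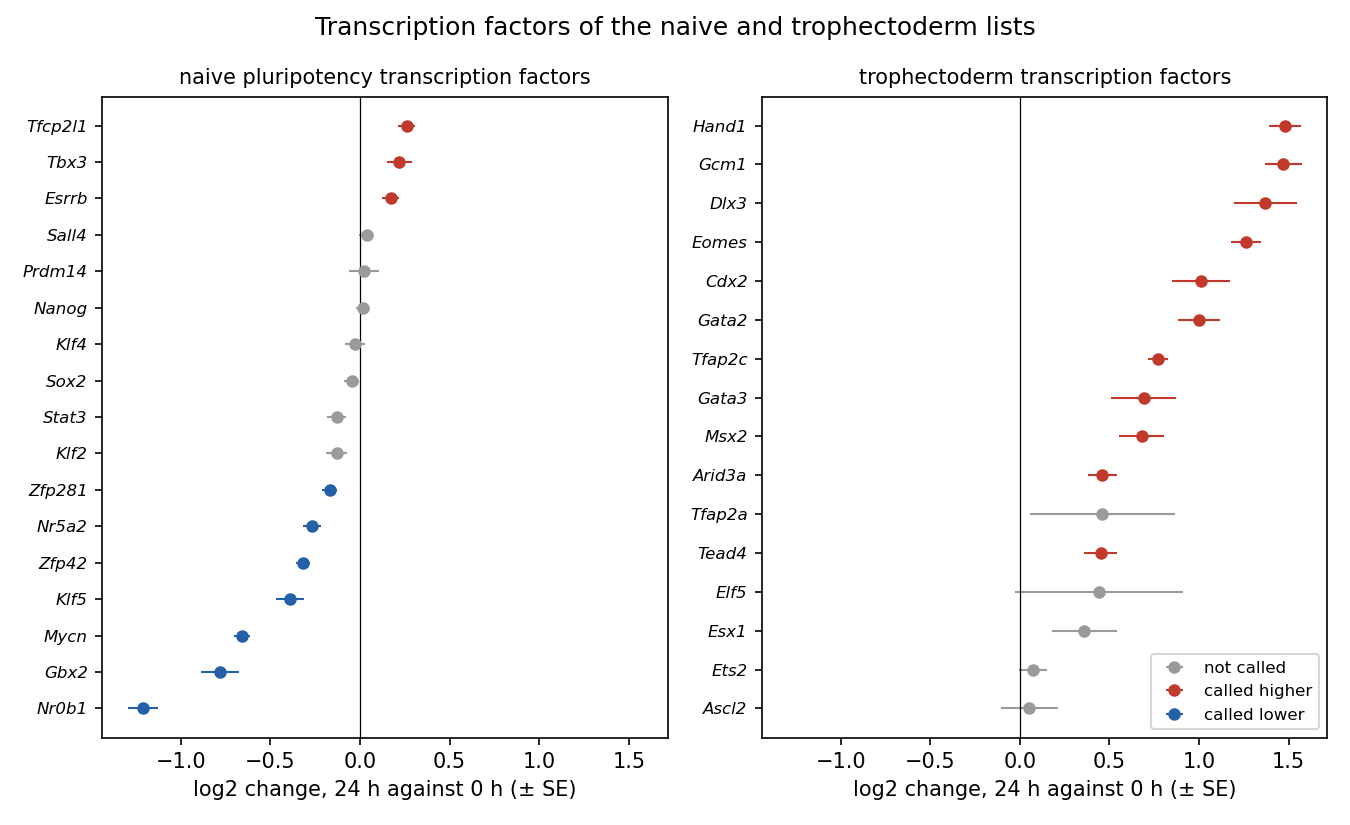
Log2 change at 24 h against 0 h with its SE for the tested naive pluripotency (left, 17 of 18 genes) and trophectoderm (right, 16 genes) transcription factors; red points were called higher, blue lower and grey not called. The naive factors spread from *Nr0b1* at -1.21 to *Tfcp2l1* at 0.26, and the trophectoderm factors from *Ascl2* at 0.053 to *Hand1* at 1.48.

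Trophectoderm transcription factors gave 11 of 16 higher and 0 lower, with a median of 0.69. *Hand1* went from 10.6 and 8.14 CPM to 25.2 and 26.5 CPM, *Gcm1* from 4.89 and 5.14 CPM to 13.9 and 13.8 CPM, and *Eomes*, a T-box factor of trophoblast stem cells and of mesendoderm, from 14.3 and 11.3 CPM to 30.6 and 30.0 CPM (1.26, adjusted p 1.26e-11). *Dlx3*, a homeobox factor of the placenta, rose from 1.84 and 1.55 CPM to 4.54 and 4.19 CPM (1.37). *Cdx2* itself stood at 2.81 and 2.67 CPM at 0 h and at 5.42 and 5.58 CPM at 24 h (1.01, adjusted p 3.83e-05). *Gata2* (1.00), *Tfap2c* (0.77), *Gata3* (0.69), *Msx2* (0.68), *Arid3a* (0.46) and *Tead4* (0.45) rose as well. *Tfap2c*, an AP-2 factor already present in ESCs, went from 71.1 and 67.4 CPM to 120 and 117 CPM. The 5 that were not called were *Elf5* (0.44), *Tfap2a* (0.46), *Esx1* (0.36), *Ets2* (0.075) and *Ascl2* (0.053), of which *Elf5* and *Tfap2a* stayed under 0.7 CPM in each of the 4 libraries.

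Genes of the trophectoderm epithelium rose in 15 of 20 cases and fell in 0, with a median of 0.31. *Wnt7b*, a Wnt ligand, went from 11.4 and 10.5 CPM to 21.2 and 22.9 CPM (1.01, adjusted p 2.91e-10). The claudin *Cldn4* went from 89.5 and 91.1 CPM to 143 and 148 CPM (0.68) and the desmosome gene *Dsp* from 103 and 107 CPM to 152 and 151 CPM (0.53), while the integrin gene *Itga7* rose by 0.52 on the log2 scale. The keratin genes rose by less, with *Krt8* at 0.37, *Krt19* at 0.35, *Krt7* at 0.33 and *Krt18* at 0.29. *Cdh1*, the epithelial cadherin that ESCs also express, stood at 729 and 722 CPM and then at 745 and 753 CPM (0.046, adjusted p 0.441).

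Most products of differentiated trophoblast were at or near no reads. Of 17 such genes 5 passed the filter on low counts, and *Prl3d1*, *Prl3b1*, *Tpbpa*, *Ctsq* and *Synb* were at or under 0.13 CPM in each of the 4 libraries. Of the 5 tested genes 4 rose: *Flt1* (0.63), a VEGF receptor, *Rhox9* (0.48) and *Rhox6* (0.44), homeobox genes of the reproductive tract and placenta, and *Peg10* (0.30), an imprinted gene derived from a retroelement. *Peg10* went from 1932 and 1862 CPM to 2331 and 2352 CPM. The count stands for the tested genes and not for the 17.

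Other ESC genes moved mostly downward. Of 22 ESC-restricted effectors 15 fell and 4 rose, with a median of -0.25. *L1td1*, an RNA-binding protein gene derived from a transposon, fell from 664 and 678 CPM to 350 and 351 CPM (-0.94, adjusted p 8.17e-09), so its 24 h level was 0.523 times that at 0 h. *Jam2*, an adhesion molecule, went from 73.7 and 67.8 CPM to 47.3 and 44.6 CPM (-0.62), *Gdf3*, a TGF-β family ligand, from 116 and 107 CPM to 71.5 and 76.6 CPM (-0.59), and *Tcl1*, a co-factor of AKT, from 26.4 and 24.8 CPM to 17.8 and 17.9 CPM (-0.52). Among those that rose were *Nanos3* (0.70), *Pecam1* (0.49) and *Alpl* (0.17). *Pecam1*, an adhesion receptor of ESCs and endothelium, went from 85.2 and 87.3 CPM to 124 and 119 CPM. *Alpl*, the alkaline phosphatase of ESCs, was at 0.075 (adjusted p 0.282) after the GC correction.

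Of 9 other POU family genes tested, whose proteins read the octamer or related sequences, 2 fell and 0 rose. *Pou2f1*, which encodes OCT1, went from 111 and 105 CPM to 82.1 and 86.3 CPM (-0.36, adjusted p 2.35e-06), and *Pou4f2* from 7.01 and 6.62 CPM to 3.89 and 3.39 CPM (-0.90, adjusted p 3.55e-05). *Pou3f1*, a factor of the primed epiblast, stood at 24.5 and 22.2 CPM against 21.0 and 22.3 CPM (-0.11, adjusted p 0.341), but was called lower after the GC correction at -0.25 (adjusted p 0.0125), and *Pou6f1* was at -0.18 (adjusted p 0.353).

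Genes of the formative and primed epiblast, the states that follow naive pluripotency, fell in 10 of 16 cases and rose in 1, with a median of -0.33. After *Foxd3* the largest falls were *Zic5* (-1.10), from 33.0 and 34.2 CPM to 15.5 and 16.0 CPM, *Lef1* (-1.05), a transcription factor of the Wnt pathway, from 26.3 and 25.2 CPM to 11.4 and 13.7 CPM, and *Zic2* (-0.98), from 19.4 and 17.3 CPM to 8.89 and 9.73 CPM. *Otx2*, a homeobox factor of the epiblast, fell as well (-0.50, adjusted p 3.43e-06). The gene that rose was *Fgf5* (0.41, adjusted p 0.0113), a marker of the primed epiblast. *Cdh2* (0.21, adjusted p 0.0684) was not called.

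Markers of other cell types that a culture could hold were examined as whole lists. Primitive endoderm genes gave 7 of 15 higher and 1 lower, with a median of 0.31. *Gata6*, a factor of this lineage, went from 0.882 and 0.709 CPM to 2.66 and 2.58 CPM (1.73, adjusted p 1.90e-06), while *Gata4*, *Sox17*, *Hnf4a* and *Pdgfra* were not called and stayed at or under 2.58 CPM. The others that rose were *Amn* (1.06), the adaptor gene *Dab2* (0.75), and the matrix genes *Col4a1* (0.55), *Col4a2* (0.52), *Lamb1* (0.25) and *Sparc* (0.24), and the laminin gene *Lama1* fell by 0.23. Among neural markers 2 of 6 rose and 2 fell. *Pax6* (-0.96) went from 10.9 and 11.1 CPM to 5.45 and 5.92 CPM and *Olig2* (-0.91) from 11.9 and 12.2 CPM to 6.13 and 6.73 CPM, whereas *Tubb3* (0.36) and *Map2* (0.32) rose.

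Of 6 mesoderm markers the 1 that rose was *Eomes*, which the trophectoderm list holds too; *Kdr* (0.39), *T* (0.52), *Tbx6* and *Mixl1* were not called, and *T* did not pass 0.731 CPM. Of 5 fibroblast markers 0 were called, the highest being *Thy1* and *Col1a1* at up to 3.53 CPM. Of 12 genes of two-cell-like cells, the rare state of ESC cultures marked by *Zscan4*, 0 were called, with a median of -0.006 and the values of the *Zscan4* copies from -0.028 to 0.061, and the signs of several copies changed with the scaling. These copies are near-identical, and reads can be split between them. In bulk samples, a change in the share of cells of a type cannot be told apart from a change in RNA per cell.

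**Figure D4:**
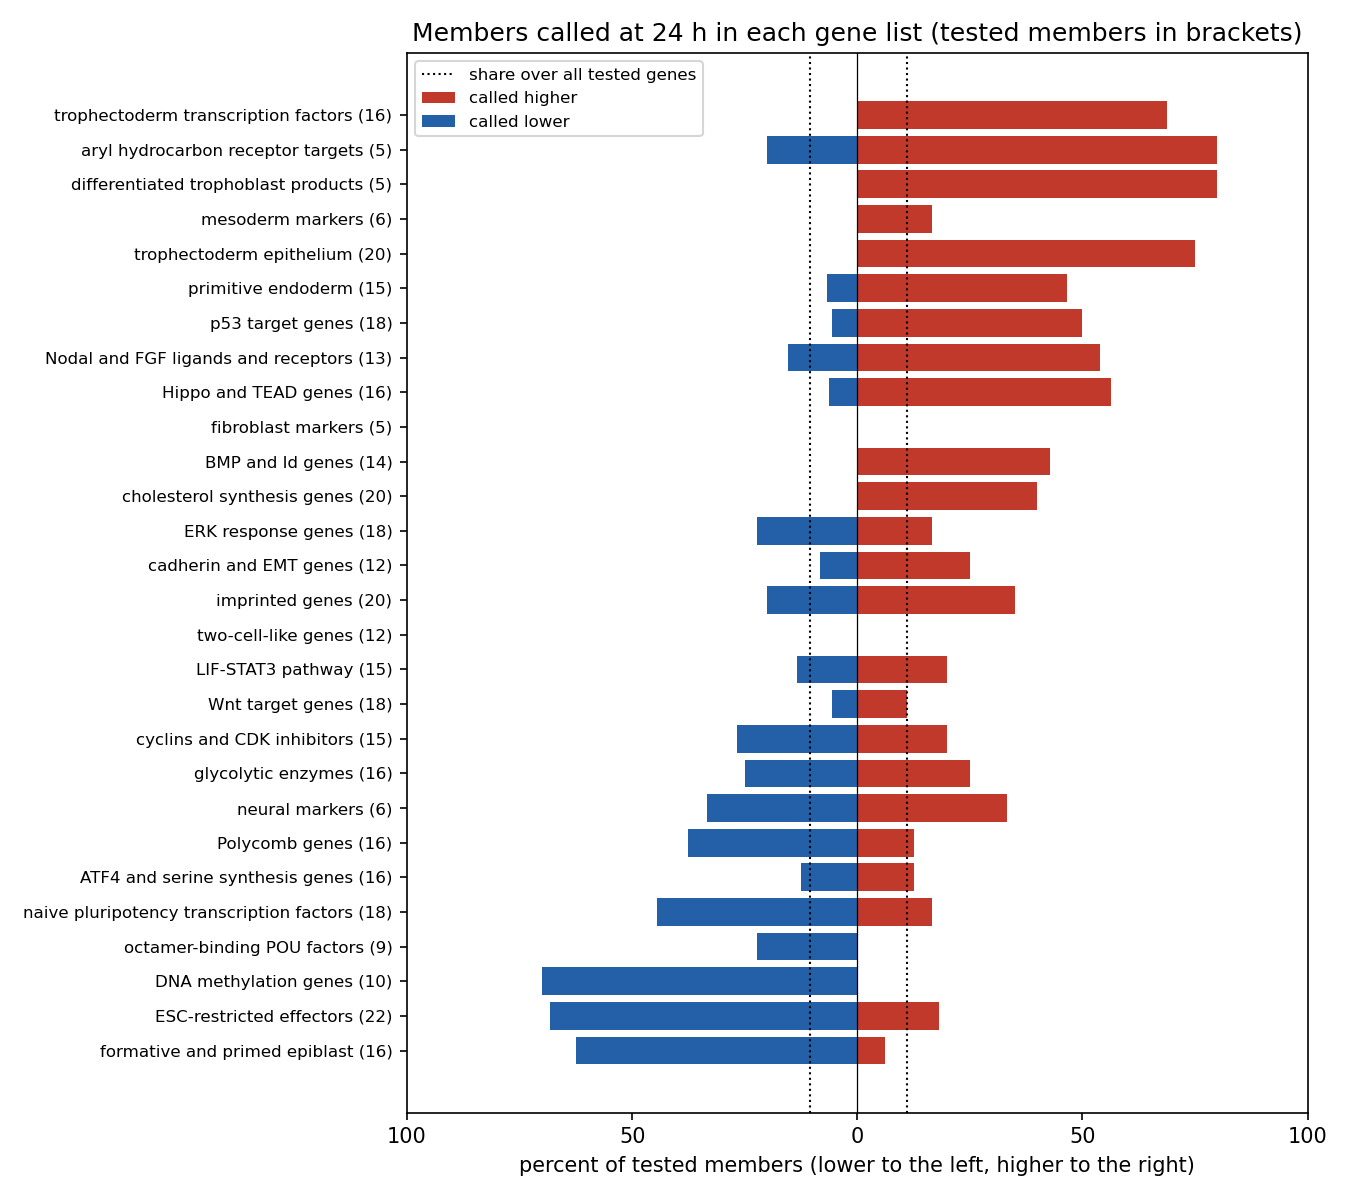
Percent of tested members called higher (red, to the right) and lower (blue, to the left) in each of the 28 gene lists, ordered by the list's median log2 change; dotted lines mark 11.0% higher and 10.6% lower over all genes tested, and the number of tested members is in brackets. Trophectoderm transcription factors stand at the top with 11 of 16 higher, and formative and primed epiblast genes at the bottom with 10 of 16 lower.

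Signalling genes moved in both directions. Of 13 Nodal and FGF ligands and receptors, 7 rose and 2 fell, with a median of 0.26. *Tdgf1*, the Nodal co-receptor Cripto, went from 656 and 735 CPM to 380 and 384 CPM (-0.86, adjusted p 1.95e-13), and *Fgf4*, the FGF ligand of ESCs and a known target of OCT4 and SOX2, from 135 and 134 CPM to 88.6 and 88.1 CPM (-0.60, adjusted p 6.11e-11). *Fgfr2*, the FGF receptor of trophectoderm, rose from 35.6 and 36.3 CPM to 58.0 and 57.9 CPM (0.69, adjusted p 1.61e-10), and *Fgfr3* (0.58), *Lefty1* (0.41) and *Fgfr1* (0.28) rose by less. *Fgfr3* was at 0.49 (adjusted p 0.0629) after the GC correction. *Nodal* itself was at 80.4 and 74.3 CPM against 79.4 and 78.0 CPM (0.027).

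Of 14 BMP and Id genes 6 rose and 0 fell, but after the GC correction 4 were called higher and 1 lower. *Smad6*, an inhibitor induced by BMP, went from 14.5 and 12.3 CPM to 28.0 and 28.4 CPM (1.08, adjusted p 1.00e-10), and *Bmp7* from 3.33 and 3.24 CPM to 6.04 and 6.58 CPM (0.94). *Id2* (0.33) rose too, while *Id1* (-0.12) and *Id3* (-0.029) were not called. In the LIF pathway 3 of 15 rose and 2 fell, and after the GC correction 3 were called higher and 4 lower. *Lifr*, the LIF receptor, went from 162 and 167 CPM to 102 and 104 CPM (-0.67, adjusted p 4.07e-12), and *Lif* itself rose from 10.1 and 7.97 CPM to 12.8 and 12.2 CPM (0.48). *Pim1*, a kinase induced by STAT3, rose by 0.33, and *Socs3*, a feedback inhibitor of the same pathway, stood at 69.1 and 65.7 CPM against 70.9 and 71.9 CPM (0.085, adjusted p 0.242).

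Among 18 response genes of the ERK pathway, which PD03 blocks where present, 3 rose and 4 fell, with a median of 0.11. *Fos* (0.70), *Dusp4* (0.30) and *Spry1* (0.29) rose and *Egr1* (-0.84), *Etv5* (-0.27), *Ccnd1* (-0.19) and *Spred1* (-0.18) fell. *Egr1* went from 6.89 and 6.32 CPM to 3.34 and 4.04 CPM. *Spry1* was at 0.19 (adjusted p 0.0779) after the GC correction. Of 18 Wnt target genes 2 rose, *Tcf7l2* (0.46) and *Notum* (0.34), and 1, *Lef1*, fell; *Axin2*, a common readout of the pathway, was at 13.9 and 11.4 CPM against 13.8 and 13.9 CPM (0.13, adjusted p 0.375), and *Znrf3* and *Tcf7l1* were at -0.090 and -0.077. The Wnt list's median was -0.023. Its shares, 11.1% higher and 5.56% lower, stood beside 11.0% and 10.6% over all genes tested, so the higher share was near that of all genes. Whether PD03 and Chiron were present at 24 h is not stated, so a change of medium cannot be told apart from the other effects in either list.

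Hippo and TEAD genes, which take part in the choice of trophectoderm, rose in 9 of 16 cases and fell in 1. *Ccn1*, a target of YAP, went from 59.5 and 58.5 CPM to 82.9 and 86.8 CPM (0.52, adjusted p 1.90e-08), *Amot*, which binds YAP, from 31.7 and 32.8 CPM to 45.7 and 44.6 CPM (0.48), and *Tead3* from 8.50 and 8.01 CPM to 11.4 and 11.8 CPM (0.49). *Ccn2*, another YAP target, was the gene that fell (-0.20, adjusted p 0.0379), and *Yap1* stood at 217 and 223 CPM against 223 and 221 CPM. Of 12 cadherin and EMT genes, *Snai2* (1.65), *Snai1* (0.64) and *Cdh3* (0.27) rose and *Epcam* (-0.12) fell. *Snai2* had at most 0.654 CPM, and *Snai1* was at 0.51 (adjusted p 0.0921) after the GC correction.

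Chromatin regulators were examined in a pair of lists. Of 10 DNA methylation genes 7 fell and 0 rose, with a median of -0.25. *Tet2*, a 5-methylcytosine oxidase, went from 176 and 172 CPM to 110 and 113 CPM (-0.65, adjusted p 1.20e-11), and the de novo methylation genes *Dnmt3a* (-0.36), *Dnmt3l* (-0.33) and *Dnmt3b* (-0.31) fell too. *Dnmt3b* stood at 596 and 592 CPM at 0 h and at 483 and 476 CPM at 24 h. *Dnmt1*, the maintenance enzyme, was at 445 and 434 CPM against 437 and 455 CPM (0.022, adjusted p 0.74). Of 16 Polycomb genes 6 fell and 2 rose. *Eed*, a core PRC2 subunit, went from 194 and 206 CPM to 139 and 141 CPM (-0.51), and *Kdm2b* (-0.30), *Pcgf6* (-0.29) and *Rnf2* (-0.27) fell as well, while the PRC2 accessory gene *Phf19* rose from 16.3 and 15.3 CPM to 30.8 and 30.2 CPM (0.95, adjusted p 1.58e-10). *Pcgf2* (0.24) also rose, and was at 0.18 (adjusted p 0.0799) after the GC correction.

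Target genes of p53, the factor that DNA breaks are known to activate, rose in 9 of 18 cases and fell in 1, with a median of 0.27. *Gdf15*, a stress-induced hormone, went from 2.00 and 1.45 CPM to 3.60 and 3.31 CPM (1.02), *Btg2*, an anti-proliferative gene, from 47.4 and 45.2 CPM to 68.7 and 67.5 CPM (0.56, adjusted p 1.16e-08), *Cdkn1a*, the CDK inhibitor p21, from 23.1 and 24.1 CPM to 32.7 and 34.4 CPM (0.51, adjusted p 3.97e-05) and *Trp53inp1* from 375 and 404 CPM to 544 and 535 CPM (0.47). *Pmaip1*, which encodes the death activator NOXA, fell by 0.26, and *Bax*, *Aen* and *Zmat3* were not called. After the GC correction 8 of the list were called higher and 2 lower, with a median of 0.15. In O4AID, which has no Cre, *Gdf15*, *Btg2*, *Cdkn1a* and *Trp53inp1* had log2 ratios of -0.87, 0.87, -0.12 and 0.54 at 24 h. Over the 18 genes the O4AID ratios had a median of 0.29, with 13 above 0 and 5 below. Whether Cre or DNA breaks had a part in these changes was not tested.

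Cell cycle and metabolic genes moved both ways. Of 15 cyclin and CDK inhibitor genes 3 rose, *Cdkn2b* (0.52), *Cdkn1a* and *Ccnd3* (0.17), and 4 fell, *Ccnd2* (-0.34), *Ccnd1* (-0.19), *Ccne2* (-0.17) and *Ccne1* (-0.14). After the GC correction *Ccnd3* was at 0.067 (adjusted p 0.398) and *Ccne2* at -0.13 (adjusted p 0.101). Of 16 glycolytic genes 4 rose and 4 fell, but after the GC correction 4 were called higher and 8 lower. *Hk1* went from 36.9 and 37.0 CPM to 64.6 and 59.7 CPM (0.75, adjusted p 1.52e-09) and *Hk2* from 315 and 343 CPM to 243 and 248 CPM (-0.42, adjusted p 4.34e-08), so these 2 hexokinase genes changed in opposite directions. *Pfkp* (0.36), *Slc2a3* (0.32) and *Slc2a1* (0.29) rose, while *Ldha* (-0.25), *Tpi1* (-0.18) and *Pgam1* (-0.12) fell.

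Of 20 cholesterol synthesis genes 8 rose and 0 fell, by between 0.13 and 0.47; *Fdps* (0.47), *Pmvk* (0.40), *Mvd* (0.30) and *Msmo1* (0.25) rose most. Of 16 genes of the ATF4 response and serine synthesis 2 rose, *Nupr1* (0.36) and *Ddit3* (0.34), and 2 fell, the amino acid transporter genes *Slc7a5* (-0.21) and *Slc3a2* (-0.20). These shares of the ATF4 list, 12.5% in each direction, were close to the 11.0% higher and 10.6% lower over all genes tested. After the GC correction 2 of the list were called higher and 4 lower. *Atf4* stood at 181 and 174 CPM against 180 and 180 CPM. Of 5 targets of the aryl hydrocarbon receptor 4 rose and 1 fell. *Cyp1b1* went from 10.5 and 9.53 CPM to 18.0 and 17.2 CPM (0.82, adjusted p 3.35e-08), *Ahrr* (0.73), *Cyp1a1* (0.62) and *Nqo1* (0.37) rose as well, and *Tiparp* fell (-0.13, adjusted p 0.0324). *Tiparp* was at -0.085 (adjusted p 0.144) after the GC correction. In O4AID, given IAA and no 4-OHT, *Cyp1a1* and *Cyp1b1* had log2 ratios of 7.35 and 6.08.

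Imprinted genes, expressed from 1 parental allele, gave 7 of 20 higher and 4 lower. *H19*, a noncoding RNA abundant in trophoblast and endoderm, went from 195 and 175 CPM to 375 and 368 CPM (1.01, SE 0.0484, adjusted p 6.13e-14), 2.01 times its 0 h level. *Igf2*, its neighbour, which encodes a growth factor, went from 35.6 and 34.8 CPM to 57.5 and 57.4 CPM (0.71), and *Plagl1* (0.58) and *Igf2r* (0.34) rose as well. *Snrpn* went from 161 and 191 CPM to 117 and 117 CPM (-0.59, adjusted p 0.000223), and *Phlda2* (-0.32), *Grb10* (-0.30) and *Rian* (-0.15) fell.

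*Sfmbt2* is another imprinted gene, needed in the placenta, and it carries a large cluster of miRNA genes in its introns. This set was chosen after its values were seen. *Sfmbt2* (GRCm38 chromosome 2, 10370510 to 10595253) stood at 215 and 211 CPM at 0 h and at 297 and 287 CPM at 24 h (0.46, adjusted p 8.72e-09). Of 170 miRNA genes tested 35 were called (20.6%, beside 21.6% of all genes), all higher, and 31 of them were among the 112 tested within *Sfmbt2*, 27.7% of these beside 11.0% called higher of all genes. The count depended on the fit: edgeR called 14 and 15 of the 112 higher without 0 h replicates 1 and 2, and 5 and 18 without 24 h replicates 1 and 2. DESeq2 called 1 of the 20 to which it gave an adjusted p, and 3 of the 31 were called under every alternative that gave an adjusted p. Under no alternative was a member called lower. The cluster's summed level was 68.8 and 83.5 CPM at 0 h and 130 and 114 CPM at 24 h, so the groups did not overlap. The sum stood at 93.7 and 96.7 CPM at 18 h and at 132 and 136 CPM at 36 h. The median change of the 112 was 0.72, with a range from -0.35 to 2.02, and 110 of them were above 0. Of 58 miRNA genes elsewhere 4 were called, *Mir335* (1.01), *Mir1957a* (0.79), *Mir290a* (0.71) and *Gm26298* (0.44), and their median was -0.008.

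No miRNA gene of the cluster overlapped an annotated exon of *Sfmbt2*, and all lie on its strand between bases 10465287 and 10518279. Reads of the cluster cannot be told apart from reads of the unspliced *Sfmbt2* transcript, and libraries of rRNA-depleted long RNA do not measure mature miRNAs. The members are near-identical copies with few counts each, from 1 to 23 for the most changed, *Mir669m-1* (2.02, adjusted p 0.0359) and *Mir467b* (1.88, adjusted p 0.0138), so which copies rose is uncertain. The sum over the cluster rested on 1717 and 2473 counts at 0 h and on 4008 and 2963 counts at 24 h. In O4AID the summed level was 2.07 CPM at 0 h and 7.53 CPM at 24 h.

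**Figure D5:**
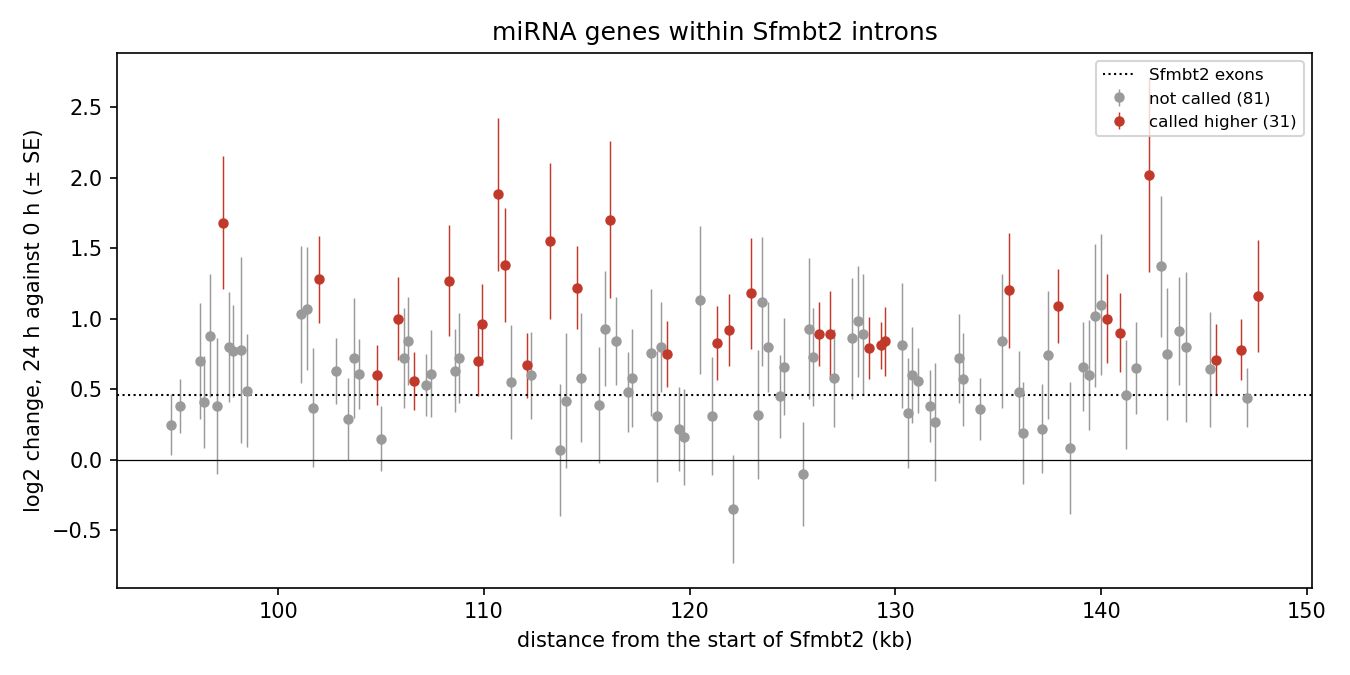
Log2 change at 24 h against 0 h with its SE for each of the 112 tested miRNA genes within *Sfmbt2*, by distance from the gene's start in kb; red points were called higher, grey points not called, and the dotted line is the change over the exons of *Sfmbt2*, 0.46. Nearly all points lie above 0, and called and uncalled members are spread along the whole cluster.

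The kind of gene called was uneven. Of 14641 protein-coding genes tested 1908 were called higher and 1756 lower, or 25% called, beside 21.6% of all genes tested. Of 1506 processed pseudogenes 16 were called higher and 189 lower, or 13.6% called. Over all genes tested 11.0% were higher and 10.6% lower. Few processed pseudogenes were thus called higher, while the share called lower stood near that of all genes. Processed pseudogenes are copies of spliced transcripts, and their reads cannot be told apart from those of the parent genes where the copies are near-identical. By chromosome the share of tested genes that was called ran from 18.3% on chromosome 7 to 26.4% on chromosome 15 among the autosomes.

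The direction of the calls followed the GC content of the transcripts. Protein-coding genes were split into 5 groups of equal size by the GC percentage of their longest transcript. In the group from 28.9% to 44% GC, 4.68% of genes were called higher and 18.8% lower, with a median log2 change of -0.063. In the group from 55.8% to 72.8% GC, 22.4% were called higher and 4.23% lower, with a median of 0.12. The 2 replicates of a time also differed along GC, with medians of replicate 2 over replicate 1 from 0.013 in the lowest group to -0.056 in the highest at 0 h and from -0.028 to 0.030 at 24 h. In O4AID the median log2 ratio at 24 h ran from -0.066 to 0.066 over the same 5 groups. The part of GC content in the changes was not tested beyond 1 added fit, in which each library's trend along GC was removed. That fit called 4170 genes, 3375 of them among the 4089, and took the group of highest GC to 388 genes higher and 419 lower. It left *Pou5f1* at -1.37, *Cchcr1* at 2.52, 11 of 16 trophectoderm transcription factors and 14 of 20 trophectoderm epithelium genes higher, and 10 of 18 naive factors lower with 1 higher.

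Beside CreER, the genes called at 24 h can be read in the O4AID libraries of the same time, for which there is 1 library per time and no test. O4AID ESCs differ in strain and origin, being ZHBT cells of 129SV background with *Pou5f1* knocked out and replaced by transgenes, so the cells and the route of OCT4 loss cannot be told apart. Over 13806 tested genes with at least 1 CPM in either O4AID library, 47.6% had a log2 ratio above 0. Of 1821 such genes called higher in CreER 70% were above 0, and of 1765 called lower 81.8% were below 0. Of the 60 genes called lower by at least 1 on the log2 scale, 18 had at least 1 CPM in O4AID. There 16 of these 18 were below 0, with a median ratio of -1.47. Of 100 such genes called higher by at least 1, 74 were above 0 in O4AID, with a median ratio of 0.57.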

How the data were processed

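RNA was extracted with a column kit and DNase, depleted of rRNA and made into libraries with a directional kit. Per the labels and the study's methods, the authors trimmed paired-end reads with Trim Galore 0.1.4, aligned them with TopHat2 2.1.0 to GRCm38 (mm10) and deposited whole-number counts per Ensembl gene from featureCounts 1.5.1. Strand and multi-mapping settings were not given in the sources used here. A normalised matrix in the same deposit was not used. The authors' own test was NOISeq-sim on merged replicates.

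Here counts of 48709 genes were read with Python 3.11.15 (92 spike-in entries without reads were left out), and edgeR 4.0.16 in R 4.3.3 fitted its quasi-likelihood model to all 10 CreER libraries with TMM factors and filterByExpr, which left 18969 genes. The 24 h coefficient was tested against 0 h with Benjamini-Hochberg adjustment, and genes under an adjusted p of 0.05 were called. SE is the absolute log2 change over the square root of F. O4AID values are log2 ratios of CPM plus 1. Samples took their groups from their titles. Whether same-numbered libraries form a parallel series is not stated. Their deviations correlated between -0.08 and 0.09 over 10 pairs of groups, so no shared shift was seen and no replicate block was used. A correlation near 0 does not exclude such a series. Replicates of 1 time differed by more than counting noise (chi-square per degree of freedom 5.95 at 0 h and 3.21 at 24 h), so none was taken as a duplicate.

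The 28 lists (391 genes, 368 tested) and the comparison were chosen with earlier results of these data known. Named genes were *Pou5f1*, tested genes within 100 kb of it, the 12 largest rises and falls among called genes with a mean of 50 counts and no overlap, all naive and trophectoderm factors, and in each other list up to 4 called members in each direction, or the members of highest CPM where fewer than 4 were called; further members are named where a count needed them. The values of 2 members of the lists are not reported here. GC content and intron positions came from GENCODE M21 (GRCm38) and promoters from RefSeq. Alternatives were RLE, total-count scaling, other filters, fewer libraries, a replicate block, DESeq2 1.42.0 and, added after the data were seen, total-count scaling without rRNA and mitochondrial genes and a GC correction. Simulated counts of about 18670 genes were drawn 5 times for 24 h against 0 h. Over the 5 sets 494 genes were changed by 1 on the log2 scale, 495 by 2 and no others. There edgeR recovered 78.9% of those changed by 1 and 95.4% of those changed by 2, with 8.2% of its calls false, above the nominal 5%. DESeq2 recovered 66.8% and 91.5%, with 2.49% false. In the data 93% of the 4089 calls changed by less than 1. The share of false calls depends on how many genes change, so these rates do not carry over to the 4089.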

Additional observations from a re-analysis of the deposited data

Results flagged for a closer look

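In 14 of the 189 named genes the CreER libraries and the O4AID libraries moved in opposite directions at 24 h. This count took genes called in CreER, with no overlap in CPM between the CreER groups and an O4AID log2 ratio of at least 1 in size. With 1 O4AID library at each time, the difference was not tested. Of all genes called higher with at least 1 CPM in O4AID, 2.8% had a ratio of -1 or less, beside 3.25% of all such genes tested. Of those called lower, 1.36% had a ratio of at least 1, beside 4.46%. The 189 named genes include uncalled genes and genes under 1 CPM in O4AID. These shares are therefore not on the same basis as the 14 and do not say whether 14 is many. *Tbx3*, *Esrrb* and *Tiparp*, listed below, were not called after the GC correction. Naive pluripotency factors were among the genes called higher in CreER and lower in O4AID, with *Tfcp2l1* at 0.26 in CreER and -1.67 in O4AID, *Tbx3* at 0.22 and -1.23 and *Esrrb* at 0.17 and -2.82. The ESC adhesion gene *Pecam1* was at 0.49 and -2.76 and the STAT3-induced kinase gene *Pim1* at 0.33 and -1.47. *Tead4*, a trophectoderm factor, was at 0.45 and -1.40, *Lefty1*, a Nodal inhibitor, at 0.41 and -1.02, *Tubb3*, a neuronal tubulin gene, at 0.36 and -1.59, and *Pfkp*, a phosphofructokinase gene, at 0.36 and -1.60.

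The opposite order was seen for 5 genes called lower in CreER. *Lef1* was at -1.05 in CreER and 1.27 in O4AID, *Pax6* at -0.96 and 1.53, *Ccnd2* at -0.34 and 1.44, *Phlda2* at -0.32 and 1.66 and *Tiparp* at -0.13 and 1.55. The cells, the agent and the route of OCT4 loss all differ between the lines and cannot be told apart.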

How the results depend on the processing

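The number of genes called was 4089, and it stayed within 1.5 times of that under RLE (4173), total counts (3714), other filters, the 4 libraries alone (3533), the replicate block (4139) and both added fits, while DESeq2 called 2585. Without 1 library in turn it ran from 2343 to 3703, a fit in which the lone library of a time is assumed to vary like the other times. Of the 4139 calls with the replicate block, 4033 were among the 4089. Whether the replicate numbers pair the libraries is not stated. The share called higher was 51% and crossed 50% under RLE (48.2%), the 4 libraries alone (49.4%), DESeq2 (44.9%) and the added GC correction (43.6%), and ran from 48.5% to 52.9% without 1 library. It was 61.3% under total counts and 66.3% without rRNA and mitochondrial genes. Scaling moved the median of all genes by at most 0.042. Genes called with a change of at least 1 were 287, and 172 with at least 10 counts in each library, where fewer genes were tested, 105 with DESeq2 and 206 to 267 without 1 library. For the rest the cause was not tested.

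*Pou5f1* was called under all 13 alternatives. Of 2438 other values of named genes under an alternative, 2250 kept direction and side, 141 lost the call, 5 gained one and 42 turned sign, all 42 in genes that were not called. Among these, under the GC correction *Cdsn* was at -0.027, *Sall4* -0.025, *Ascl2* -0.078, *Zscan4a* 0.036 and *Zscan4d* 0.012. Without rRNA and mitochondrial genes *Klf4* was at 0.013, *Col3a1* 0.022, *Zscan4a* 0.037 and *Zscan4d* 0.013. Under total counts *Col3a1* was at 0.004 and *Zscan4a* 0.018, and with at least 10 counts *Zscan4a* was at 0.000. *Zscan4c* was at -0.006 under RLE and DESeq2 and at -0.004 with the 4 libraries alone. Without 1 library in turn, values ran from -0.30 to 0.011 for *H2-Q7*, -0.009 to 0.17 for *Cdsn*, -0.10 to 0.59 for *2300002M23Rik*, -0.011 to 0.036 for *Nanog*, -0.10 to 0.16 for *Prdm14*, -0.012 to 0.083 for *Sall4*, -0.088 to 0.16 for *Ascl2*, -0.055 to 1.37 for *Elf5*, -0.16 to 0.45 for *Tbx6*, -0.077 to 0.10 for *Mixl1*, -0.24 to 0.071 for *Thy1*, -0.17 to 0.12 for *Col3a1*, -0.17 to 0.44 for *Col1a2*, -0.34 to 0.22 for *Tcf7l1* and, among the *Zscan4* copies, -0.071 to 0.059 for *Zscan4a*, -0.030 to 0.029 for *Zscan4c*, -0.081 to 0.015 for *Zscan4d* and -0.021 to 0.10 for *Zscan4f*. The fibroblast median ran from -0.17 to 0.28. Depth limits genes near 1 CPM, such as *Gata6* or *Snai2*, which rest on few counts.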
